A study of Mus musculus with 18 samples.

Results

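Transcripts of 6 ionotropic glutamate receptor subunits, the kainate subunits Grik1, Grik2, Grik3, Grik4 and Grik5 and the delta subunit Grid1, were followed in the granule cell layer of the ventral dentate gyrus. They were taken by gene symbol as a receptor family, with earlier results of these data known, and all 6 were listed among 34620 genes and were among the 17421 genes with enough counts to be tested. The layer was taken from adult male Swiss Webster mice aged 8 to 12 weeks and profiled by RNA-Seq in 6 libraries, 2 in each of 3 groups. All animals carried intact copies of the serotonin 1A receptor gene, and the groups differed in the genotype of earlier generations. WT males had WT mothers and grandmothers and came from a lineage bred separately and in parallel. F1 males were the WT offspring of 5HT1A-/+ mothers, mated with heterozygous fathers, and F2 males were the offspring of F1 females, so that their mothers were WT and their maternal grandparents heterozygous. Animals of a group came from at least 3 litters, and neither the number of animals behind a library nor its litters are stated. The p-values therefore measure the spread between these libraries, and lineage and the genotype of earlier males cannot be told apart from maternal environment.

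Ionotropic glutamate receptors are assemblies of subunits around a cation channel. Of the kainate subunits, those encoded by Grik1, Grik2 and Grik3 (GluK1, GluK2 and GluK3) form channels by themselves and are called low-affinity subunits, whereas those encoded by Grik4 and Grik5 (GluK4 and GluK5) bind kainate with high affinity and need a low-affinity partner to make a channel. The axons of granule cells, the mossy fibres, are known for kainate receptors on both sides of their synapses with CA3 pyramidal cells. Delta subunits are not opened by glutamate in the usual way. They sit in the postsynaptic membrane and are tied to presynaptic neurexins by secreted cerebellins.

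The subunits differ in the loop that lines the pore, which is shown here because 1 of its codons is the known site of RNA editing in Grik1 and Grik2. There the enzyme encoded by Adarb1 converts an adenosine, so that a glutamine codon is read as arginine and less calcium passes. The 6 stretches are coding exon sequence of GENCODE M1 transcripts on mm9, 45 bases each, 5′ to 3′ on the coding strand, and the capitals mark the CAG codon at the editing site or, in the other subunits, at the aligned position.
Grik1: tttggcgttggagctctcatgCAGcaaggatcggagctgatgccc
Grik2: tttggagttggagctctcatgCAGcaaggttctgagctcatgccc
Grik3: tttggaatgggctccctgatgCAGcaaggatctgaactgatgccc
Grik4: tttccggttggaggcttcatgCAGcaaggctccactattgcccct
Grik5: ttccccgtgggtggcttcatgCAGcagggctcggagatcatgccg
Grid1: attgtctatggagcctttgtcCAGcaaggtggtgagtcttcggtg
All 6 genes encoded glutamine at this position by the same codon. It lies at chr16:87940787-87940789 in Grik1, chr10:48964135-48964137 in Grik2, chr4:125368451-125368453 in Grik3, chr9:42355706-42355708 in Grik4, chr7:25807516-25807518 in Grik5 and chr14:36263576-36263578 in Grid1. Over 68 aligned codons around the site, Grik1 and Grik2 were identical in 86.3% of bases and in all 68 encoded residues. Grik4 and Grik5 shared 79.4% of bases and 58 residues. Grid1 was the most distant, with at most 29 residues in common with any kainate subunit. Counts per gene do not separate edited from unedited transcripts, and editing was not measured here.

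The 6 genes lie on different chromosomes. On mm9, Grik1 spans chr16:87896441-88289947, Grik2 chr10:48819266-49508572, Grik3 chr4:125167944-125391417, Grik4 chr9:42326218-42752576, Grik5 chr7:25794872-25857388 and Grid1 chr14:35633011-36396565. Exons of none of them overlapped those of another annotated gene. Promoter sequences from RefSeq (GRCm38.p6) were at hand for 4 members, Grik2, Grik3, Grik4 and Grik5. Those of Grik2 and Grik3 are shown, the low-affinity subunits with the lowest and the highest F2 change, as the 250 bases before the annotated start on the strand of the gene, at chr10:49788755-49789004 and chr4:125490446-125490695. Capitals mark the GC box GGGCGG on either strand.
Grik2: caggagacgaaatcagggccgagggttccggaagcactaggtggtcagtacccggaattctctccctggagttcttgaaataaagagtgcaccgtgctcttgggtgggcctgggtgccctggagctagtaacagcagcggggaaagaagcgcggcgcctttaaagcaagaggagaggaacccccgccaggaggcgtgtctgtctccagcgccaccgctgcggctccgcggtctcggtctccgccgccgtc
Grik3: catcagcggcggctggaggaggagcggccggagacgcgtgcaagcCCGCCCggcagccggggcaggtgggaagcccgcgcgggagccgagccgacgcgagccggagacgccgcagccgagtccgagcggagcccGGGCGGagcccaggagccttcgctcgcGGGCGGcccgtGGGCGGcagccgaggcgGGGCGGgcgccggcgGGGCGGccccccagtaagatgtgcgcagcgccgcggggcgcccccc
The Grik3 window held 6 GC boxes and 82% G and C, more than 99.3% of the promoters in the table. The Grik2 window held none and had 62.8% G and C. Grik4 had 1 GC box and Grik5 had 2, and 32.7% of 32851 promoters of the same table held at least 1 in windows of this kind. The TATA box TATAAA, present in 12.4% of promoters, and the CRE TGACGTCA, present in 1.55%, were not found in any of the 4 windows. These matches describe the sequence only, and no binding was measured.

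Libraries held 26358165 to 33727936 reads counted on genes. Of the uniquely aligned reads, 17.7% and 20.7% lay on no annotated feature in the WT libraries, 13.8% and 12.2% in F1 and 13.9% and 17.4% in F2, so that both WT libraries were above all others, and the part of this difference in the results was not tested. Levels are normalized read counts (CPM, the reads of a gene scaled to a common library size with edgeR's TMM factors), and comparisons between genes use CPM per kb of exon. Groups were compared by the exact test of edgeR, with p adjusted over all tested genes after Benjamini and Hochberg (q), and a gene was called at q under 0.01. Markers of granule neurons were abundant. The summed level of 5 such markers was 779 and 794 CPM for WT, 686 and 838 CPM for F1 and 984 and 927 CPM for F2, so that both F2 libraries stood above the rest. Prox1 had 254 and 293 CPM in WT and 345 and 338 CPM in F2 (log2 fold change 0.32, q = 0.0698 by edgeR), and none of the 5 was called in F1 or in F2 against WT. Markers of other cells were present. The summed level of 8 oligodendrocyte markers was 1101 and 2007 CPM in WT, 2994 and 2249 CPM in F1 and 1545 and 2910 CPM in F2, with 3 markers called higher in F1 and 1 in F2. Of 6 astrocyte markers, 1 was called higher in F1 and 4 in F2, with sums of 1958 to 2226 CPM for WT, 2411 to 3031 CPM for F1 and 2783 to 3378 CPM for F2. The sums of 8 interneuron markers were 650 to 719 CPM for WT, 633 to 876 CPM for F1 and 726 to 809 CPM for F2, with 1 and 2 called higher. Oligodendrocyte precursors had 2 and 1 of 3 markers called higher in F1 and F2, CA3 and mossy cells 1 and 0 of 5, CA1 and subiculum 0 and 1 of 3, microglia 0 and 3 of 6, endothelial cells 0 and 1 of 4, and choroid plexus 0 and 0 of the 2 of its 4 markers that could be tested, with its defining transcript Ttr at no more than 1.1 CPM. No marker was called lower. The subunits are made by more than 1 of these cell types, and the part of cell composition in the results was not tested. In bulk tissue, fewer cells of a type cannot be told apart from less RNA per cell.

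Kainate and delta subunit transcripts were present in every library. Per kb of exon, Grik5 was the most abundant, at 74.9 ± 6.12 CPM per kb (SD, n = 2) in WT, 64.8 ± 3.14 in F1 and 60.3 ± 2.1 in F2. In WT it was followed by Grik2 at 15.8 ± 0.235 CPM per kb, Grik4 at 15 ± 0.413, Grid1 at 10.3 ± 0.405, Grik3 at 5.68 ± 0.191 and Grik1 at 2.19 ± 0.13, and no neighbours in this order overlapped between libraries. In F1, Grik4 (14.1 ± 0.23 CPM per kb) stood above Grik2 (12.3 ± 0.895), and the libraries of Grik2 overlapped those of Grid1 (11.5 ± 0.899). In F2, Grid1 (12.8 ± 1.03 CPM per kb), Grik2 (12.6 ± 1.71) and Grik4 (11.8 ± 0.647) overlapped, neighbour with neighbour, in the middle of the order. Grik3 and Grik1 remained the lowest in all groups. Exon length was taken over all annotated isoforms, so a gene whose long ends are not transcribed in this layer is understated on this scale.

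Of the low-affinity subunits, Grik3 (GluK3) was the member with a called change. Its level was 52.2 and 49.8 CPM in the WT libraries, 61.1 and 63 CPM in F1, and 66.4 and 76.7 CPM in F2. Both F1 and both F2 libraries stood above both WT libraries, and F2 above F1. The level rose 1.4-fold in F2, with a log2 fold change of 0.49 (SE 0.12, q = 0.00108 by edgeR's exact test). In F1 the log2 fold change was 0.28 (SE 0.12, q = 0.0844 by edgeR's exact test), and between F2 and F1 it was 0.20 (SE 0.12, q = 0.698). The F2 call held in 8 of 11 other tests, scalings and filters, with q from 0.000853 to 0.0218. The F2 call was bound to hold in 1 of these 8, which changed only the threshold and repeated the main q of 0.00108. It was lost without F2 replicate 2, the highest library (log2 fold change 0.39, q = 0.0862), without WT replicate 1 (0.53, q = 0.016) and without WT replicate 2 (0.46, q = 0.029), and in edgeR's quasi-likelihood test (0.49, q = 0.0107).

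Grik2 (GluK2), the most abundant low-affinity subunit, had lower values in both generations. Its level was 129 and 132 CPM in WT, 96.5 and 107 CPM in F1, and 114 and 94.1 CPM in F2. Every F1 and F2 library was below both WT libraries, and the F1 libraries lay within the range of the F2 libraries. Its log2 fold change stood at -0.36 in F1 (SE 0.13, q = 0.0298 by edgeR's exact test) and -0.33 in F2 (SE 0.13, q = 0.0532), neither past the threshold of 0.01. The F2 value moved to -0.19 (q = 0.498) without F2 replicate 2 and to -0.47 (q = 0.0491) without F2 replicate 1, and q ranged from 0.0225 to 0.498 over all 17 other settings. Between F2 and F1 it was 0.03 (SE 0.13, q = 1), with a sign that depended on the setting.

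Grik1 (GluK1) was the scarcest subunit, with 199 to 298 reads per library. It had 7.62 and 7.01 CPM in WT, 9.84 and 9.36 CPM in F1, and 9.35 and 10 CPM in F2, again with no overlap between WT and either generation. Grik1 had a log2 fold change of 0.39 in F1 (SE 0.19, q = 0.121 by edgeR's exact test) and 0.40 in F2 (SE 0.19, q = 0.111), not past the threshold. Its difference between F2 and F1 was 0.01 (SE 0.18, q = 1), and the sign of this value turned when single libraries were left out.

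Of the high-affinity subunits, Grik5 (GluK5) had 304 and 271 CPM in WT, 257 and 240 CPM in F1, and 225 and 237 CPM in F2. The WT libraries were the highest, and the F2 libraries were the lowest. For Grik5 the log2 fold change was -0.21 in F1 (SE 0.12, q = 0.209 by edgeR's exact test), or -0.12 without WT replicate 1, and -0.31 in F2 (SE 0.12, q = 0.0424). Grik4 (GluK4) had 90.4 and 86.9 CPM in WT, 84.3 and 82.4 CPM in F1, and 72.6 and 67.2 CPM in F2, with no overlap between any of the groups. Grik4 had a log2 fold change of -0.09 in F1 (SE 0.11, q = 0.643) and -0.34 in F2 (SE 0.12, q = 0.0199). Between F2 and F1, Grik4 had the lowest p of the members, with a log2 fold change of -0.25 (SE 0.12, unadjusted p = 0.0284 and q = 0.455 by edgeR's exact test). Neither high-affinity subunit passed the threshold of 0.01 in any comparison.

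The delta subunit Grid1 (GluD1) had 61 and 64.5 CPM in WT, 66.2 and 74 CPM in F1, and 73.8 and 82.7 CPM in F2. The F1 and F2 libraries were all above WT and overlapped each other. The log2 fold change was 0.16 in F1 (SE 0.12, q = 0.382 by edgeR's exact test), or 0.09 without F1 replicate 2 and 0.25 without F1 replicate 1, and 0.32 in F2 (SE 0.12, q = 0.0473), and it was 0.16 between F2 and F1 (SE 0.12, q = 0.861).

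**Figure D1:**
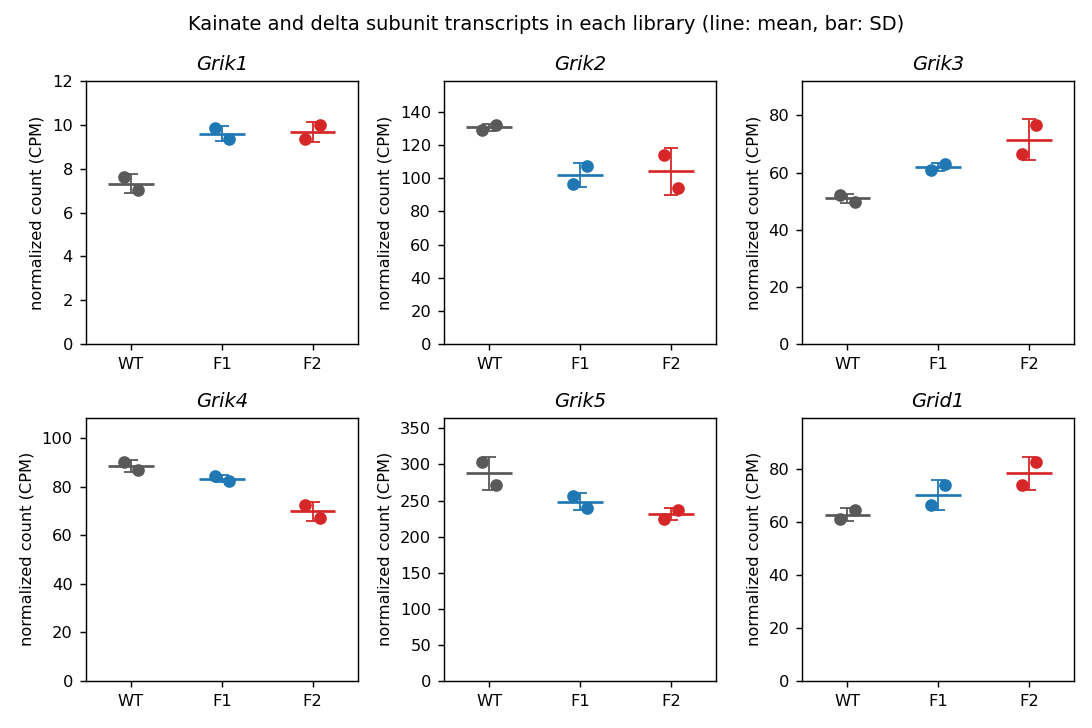
Normalized counts (CPM, each panel from 0) of the 6 subunit transcripts in the 2 libraries of WT, F1 and F2. Points are libraries, lines are means and bars are SD; Grik3 ranged from 49.8 to 76.7 CPM with WT lowest and F2 highest, and Grik4 from 67.2 to 90.4 CPM in the opposite order.

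Counted over the 6 members, 0 were called in F1 against WT by edgeR's exact test, where 12.3% of all tested genes were called, and 1 was called in F2, where 12% were. In F1, edgeR's quasi-likelihood test and DESeq2 called none of the 6 either, beside 5.91% and 10.7% of all genes, and 3 had an unadjusted p under 0.05, as did 32.6% of all genes by the exact test. In F2, the quasi-likelihood test called none of the 6, beside 5.72% of all genes, and DESeq2 called 1, beside 10.8%. In F2 all 6 had an unadjusted p under 0.05, where 32.4% of all genes did. At q under 0.05, 1 member (Grik2) passed in F1, beside 20.8% of all genes, and 4 (Grik3, Grik4, Grik5 and Grid1) passed in F2, beside 20.7%. Between F2 and F1, none of the 6 was called by the exact test, the quasi-likelihood test or DESeq2, which called 0.74%, 0.0115% and 0.651% of all genes. Of the 6, 1 had an unadjusted p under 0.05 by each of the 3 tests, beside 8.64% of all genes by the exact test. All 6 members had no overlap between WT and F1 libraries and none between WT and F2 libraries, which was also so for 60.4% and 63% of all tested genes. In both comparisons Grik1, Grik3 and Grid1 were on the higher side and Grik2, Grik4 and Grik5 on the lower. For the members, the median absolute log2 fold change was 0.25 in F1 and 0.33 in F2, beside 0.25 and 0.26 over all tested genes. The same WT libraries served both comparisons, so the F1 and F2 values are not independent of each other.

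**Figure D2:**
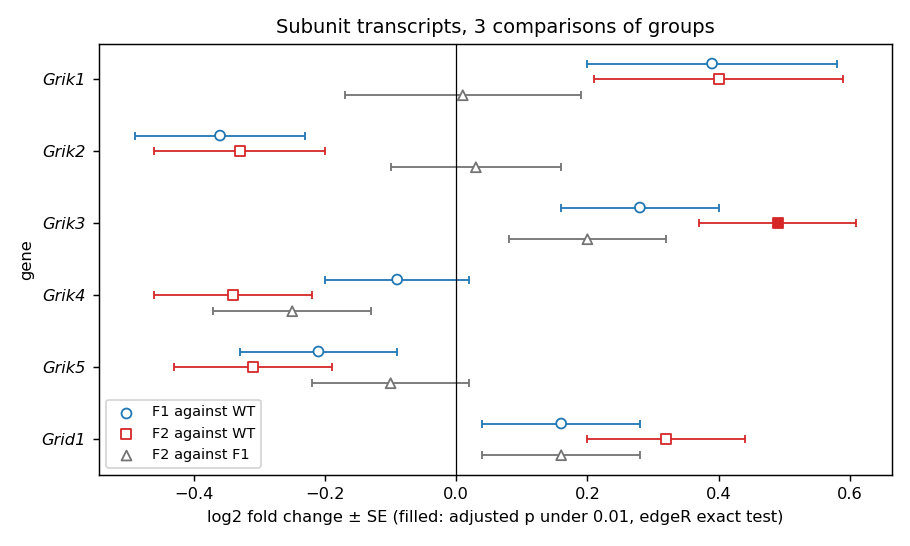
Log2 fold changes (horizontal axis, ± SE) of the 6 subunits in F1 against WT, F2 against WT and F2 against F1, with filled symbols where q was under 0.01. Grik3 in F2 against WT (0.49) is the only filled symbol, and Grik2, Grik4 and Grik5 lie below 0 against WT in both generations.

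The makeup of the kainate subunit pool was compared within each library, as the share of each subunit among Grik1 to Grik5 counts per kb, which does not depend on library scaling. With 2 libraries in each group, no exact permutation test of 2 groups, 2 libraries against 2, can give a two-sided p below 0.333, and the shares are given as values. Grik5 made up 67% and 64.8% in WT, 65.3% and 63% in F1, and 61.8% and 64.3% in F2, with overlap between groups. Grik4 made up 12.9% and 13.5% in WT, 13.9% and 14% in F1, and 12.9% and 11.8% in F2. The high-affinity subunits together held 79.1% ± 1.14 (SD, n = 2) in WT, 78.1% ± 1.46 in F1 and 75.4% ± 0.975 in F2, and both F2 libraries were below the other 4. The share of Grik3 was 4.92% and 5.1% in WT, 6.63% and 7.07% in F1, and 7.78% and 8.89% in F2, without overlap. Grik1 made up 1.93% in each WT library, 2.87% and 2.83% in F1, and 2.95% and 3.13% in F2. For Grik2 the shares overlapped, at 13.2% and 14.7% in WT, 11.4% and 13% in F1, and 14.5% and 11.8% in F2. Without division by exon length the shares of Grik3 were 9.04% ± 0.114 in WT, 12.3% ± 0.382 in F1 and 14.7% ± 1.56 in F2, in the same order. Those of Grik5 were smaller than per kb, at 50.8% ± 1.81 in WT, 49.2% ± 1.9 in F1 and 47.5% ± 1.87 in F2. The high-affinity subunits together then held 66.5% ± 1.51 in WT, 65.7% ± 2 in F1 and 61.9% ± 1.15 in F2. The summed level of the 5 kainate subunits was 583 and 546 CPM in WT, 509 and 502 CPM in F1, and 488 and 485 CPM in F2.

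**Figure D3:**
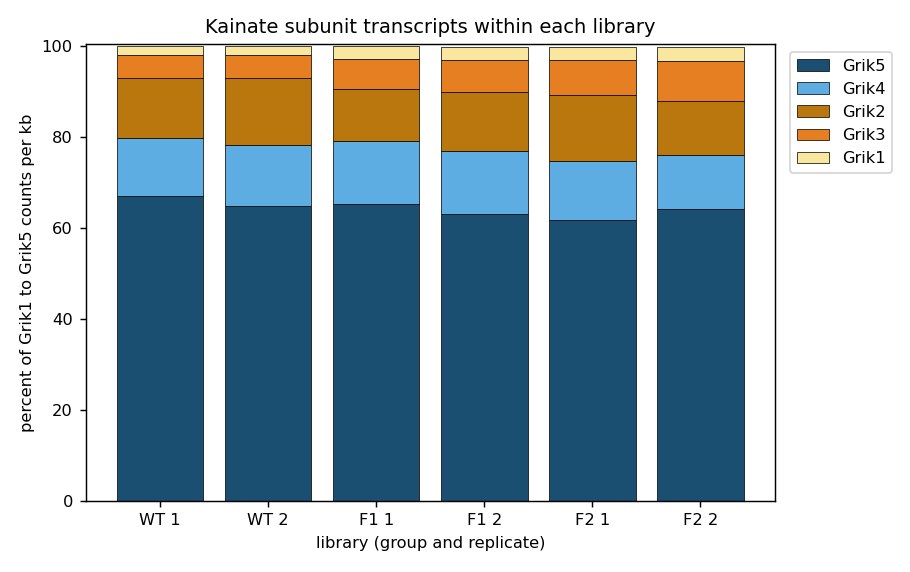
Share of each kainate subunit (percent of Grik1 to Grik5 counts per kb, stacked to 100) in each of the 6 libraries. Grik5 holds 61.8% to 67% of every bar, and the Grik3 segment grows from 4.92% in WT replicate 1 to 8.89% in F2 replicate 2.

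The ratio of Grik3 to Grik2 reads, chosen after their values were seen, needs neither library scaling nor exon length. There were 40.4 and 37.8 Grik3 reads per 100 Grik2 reads in WT, 63.4 and 58.9 in F1, and 58.2 and 81.5 in F2. The WT libraries were the lowest, and F1 lay within the wide range of F2. The corresponding number of Grik4 reads per 100 Grik5 reads was 30.9 ± 1.68 (SD, n = 2) in WT, 33.6 ± 1.08 in F1 and 30.3 ± 2.71 in F2, with overlap between WT and F2.

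Among the members, the strongest positive correlations of log2 CPM over the 6 libraries were between Grik3 and Grid1 (Pearson r = 0.93) and between Grik1 and Grik3 (r = 0.90). Grik4 and Grik5 had r = 0.81. The most negative values were those of Grik1 with Grik2 (r = -0.94) and of Grik4 with Grid1 (r = -0.93). Across 10073 other genes with a mean of at least 10 CPM (10074 for Grik1), the patterns most like those of the members were as follows. Grik1 was closest to Bcl2l1 (r = 0.997) and Ank (r = 0.994), Grik2 to Ncapd3 (r = 0.992) and Uggt2 (r = 0.984), and Grik3 to Astn2 (r = 0.998) and Mvk (r = 0.996). Grik4 was closest to Qpct (r = 0.986) and Sec14l2 (r = 0.983), Grik5 to Fam65a (r = 0.998) and Slc20a1 (r = 0.998), and Grid1 to Zc3h14 (r = 0.993) and Nf1 (r = 0.980). These are descriptions over 6 points that share the 3 groups and the scaling of each library.

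Kainate and delta receptors act with auxiliary subunits, synaptic organisers, scaffolds and modifying enzymes, and 30 such partner genes were examined beside the members. Of these, 3 were called in F1 (2 higher, 1 lower) and 2 in F2 (both lower) by edgeR's exact test, 10% and 6.67% of the list beside 12.3% and 12% of all tested genes. Their median log2 fold change was 0.08 in F1 and 0.11 in F2, beside 0.01 and -0.00 over all genes.

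Neto1 and Neto2 encode the auxiliary subunits that bind kainate receptors and slow their gating. Neto1 had 56.6 and 51.1 CPM in WT, 87.5 and 97.5 CPM in F1, and 62.6 and 67.2 CPM in F2. The F1 libraries stood well above the rest, and the F2 libraries were between F1 and WT. It rose 1.72-fold in F1 (log2 fold change 0.78, SE 0.12, q = 1.3e-08 by edgeR's exact test). In F2 its log2 fold change was 0.27 (SE 0.12, q = 0.104), and the difference between F2 and F1 was itself past the threshold at -0.51 (SE 0.12, q = 0.00476 by edgeR's exact test), though not in the quasi-likelihood test (q = 0.0863). Neto2 had 26.5 and 34.6 CPM in WT, 44.7 and 53.2 CPM in F1, and 25.9 and 41.4 CPM in F2, so that WT and F2 overlapped. It rose 1.6-fold in F1 (log2 fold change 0.68, SE 0.20, q = 0.00685 by edgeR's exact test). This call was lost without WT replicate 1 (log2 fold change 0.50), without F1 replicate 2 (0.56) and in the quasi-likelihood test (q = 0.0353). It held in 10 of 11 other tests, scalings and filters. These 10 include the setting that changed only the threshold, which repeats the main q of 0.00685 and is no separate check. Between F2 and F1 the log2 fold change of Neto2 was -0.54 (SE 0.20, q = 0.234), and it moved to -0.24 (q = 1) without F2 replicate 1 and to -0.92 (q = 0.00395) without F2 replicate 2.

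Of the scaffolds and trafficking partners, Klhl17 (actinfilin) encodes an adaptor that directs the GluK2 protein to degradation. Its level was 105 and 82.9 CPM in WT, 43.5 and 38.5 CPM in F1, and 40.5 and 43.2 CPM in F2. All F1 and F2 libraries were far below WT, and those of F1 and F2 overlapped. It fell by 1.19 on the log2 scale in F1 (SE 0.14, q = 4.75e-15 by edgeR's exact test) and by 1.17 in F2 (SE 0.14, q = 3.16e-14), and it remained called in both with any library left out. Pick1 encodes a PDZ-domain protein that binds glutamate receptor subunits including those of kainate receptors. It had 60.9 and 54.2 CPM in WT, 50.2 and 44 CPM in F1, and 42.3 and 43.3 CPM in F2, with WT highest. The log2 fold change was -0.29 in F1 (SE 0.13, q = 0.0924), and Pick1 fell by 0.43 on the log2 scale in F2 (SE 0.13, q = 0.00795 by edgeR's exact test). It was not called in F2 by the quasi-likelihood test (q = 0.0235). Of 11 other tests, scalings and filters, 5 gave q under 0.01 in F2. These 5 include the setting that changed only the threshold, which repeats the main q of 0.00795 and is no separate check. The F2 call of Pick1 was lost without WT replicate 1 (q = 0.166), WT replicate 2 (q = 0.0136), F2 replicate 1 (q = 0.149) or F2 replicate 2 (q = 0.0833). Part of its exons, 519 bases, overlaps Gm17209 on the same strand, where reads can be lost as ambiguous.

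Among the synaptic organisers, C1ql2 and C1ql3 encode secreted proteins that granule cells release at mossy fibre synapses and that bind kainate receptors. C1ql2 had 135 and 139 CPM in WT, 117 and 111 CPM in F1, and 158 and 121 CPM in F2. C1ql2 had a log2 fold change of -0.27 in F1 (SE 0.14, q = 0.153 by edgeR's exact test) and 0.03 in F2 (SE 0.14, q = 0.928), where its 2 libraries lay on either side of WT. C1ql3 had 176 and 159 CPM in WT, 153 and 208 CPM in F1, and 259 and 213 CPM in F2, with both F2 libraries highest. The log2 fold change of C1ql3 was 0.11 in F1 (SE 0.15, q = 0.679) and 0.49 in F2 (SE 0.15, q = 0.0109 by edgeR's exact test), just outside the threshold. With other settings the F2 value of C1ql3 ran from 0.35 to 0.63 and q from 0.00104 to 0.274, under 0.01 in 4 of 17. No gene of the list of neurexins, cerebellins and C1ql proteins was called in F1 or F2 by the exact test over all 6 libraries.

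Adarb1, which encodes the enzyme that edits the codon marked in the pore sequences of Grik1 and Grik2, had 157 and 132 CPM in WT, 163 and 235 CPM in F1, and 182 and 203 CPM in F2. All F1 and F2 libraries were above WT, F1 replicate 1 by a small margin. The log2 fold change was 0.46 in F1 (SE 0.16, q = 0.0268 by edgeR's exact test) and 0.42 in F2 (SE 0.16, q = 0.0493), not past the threshold. The F1 value rested on F1 replicate 2: it was 0.18 (q = 0.497) without that library and 0.72 (q = 4.79e-05) without F1 replicate 1. In F2, q was under 0.01 in 3 of 17 other settings and ranged from 0.00524 to 0.343. None of the 6 genes for RNA editing and SUMO enzymes was called by the exact test over all 6 libraries.

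**Figure D4:**
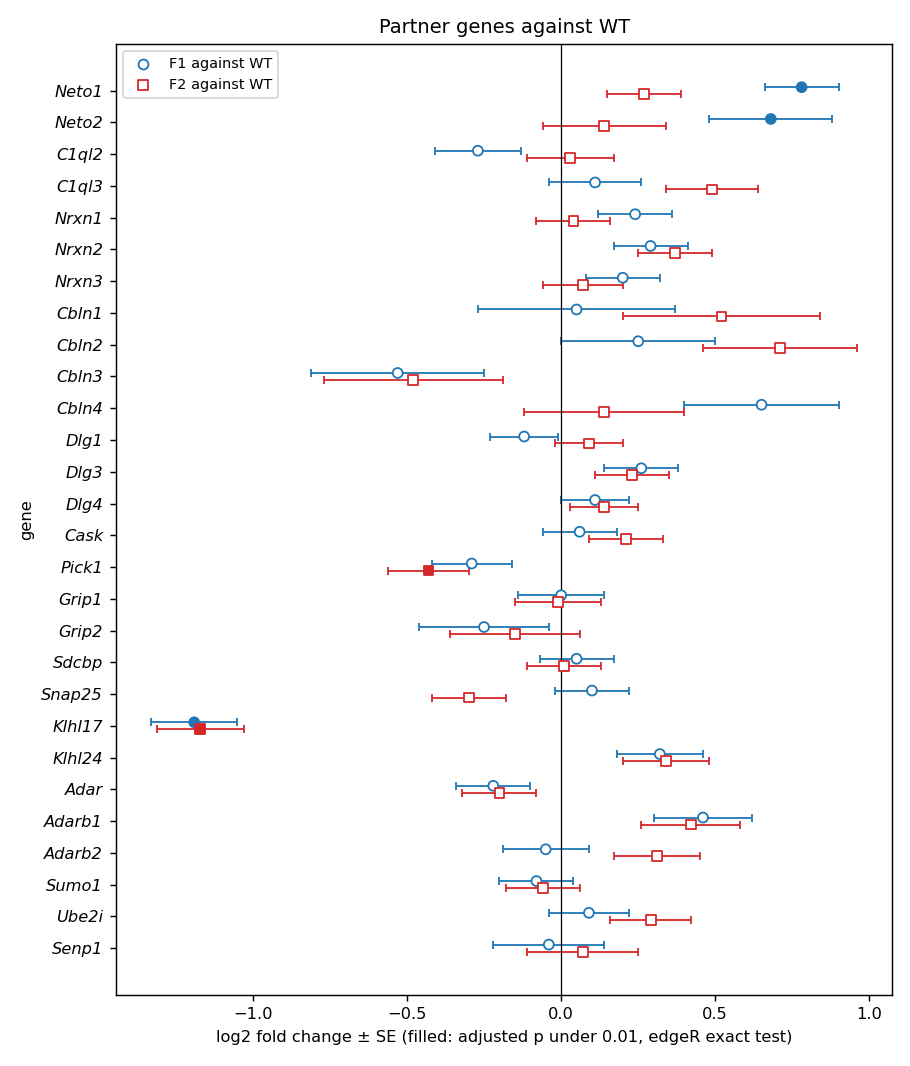
Log2 fold changes (horizontal axis, ± SE) of 28 partner genes in F1 and F2 against WT, with filled symbols where q was under 0.01. Klhl17 lies near -1.19 and -1.17 in both generations, Neto1 (0.78) and Neto2 (0.68) are filled in F1, and Pick1 (-0.43) is filled in F2.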

How the data were processed

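The granule cell layer was microdissected by the authors from cryosections of brains perfused with RNAlater, and poly(A) RNA was sequenced as single-end reads of 50 bases on Illumina HiSeq machines of more than 1 model. The authors aligned reads to mm9 with TopHat (2.0.2 in the submitters' processing notes, another release in the paper) with no search for new junctions. Raw gene counts were made with HTSeq (intersection-strict) and deposited by the authors without normalization, and they drop reads that align to several places. Strand setting, HTSeq version and annotation are not given in the sources used here, and the bisulfite samples were not analysed here.

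Groups follow the labels. The 6 members, the 30 partner genes and the marker lists were chosen with earlier results of these data known. In edgeR 4.0.16 (R 4.3.3), filterByExpr removed low counts, TMM set the scaling and the exact test compared groups. Tagwise dispersion was estimated from all 3 groups and moderated with edgeR's default settings. The common dispersion over all genes was 0.0113 (coefficient of variation 10.6%). Adjustment of p over 17421 genes followed Benjamini and Hochberg, and each standard error was derived from mean counts and dispersion. The study's methods name edgeR with tagwise dispersion but no function, and its texts give thresholds of 0.01 and 0.05, of which 0.01 was used. Named are all members, Neto1, Neto2, C1ql2, C1ql3, Adarb1, partners at q under 0.01 in F1 or F2, and the 2 genes most like each member. Counts over the partner list include a gene that is not reported here. Replicates differed by more than sampling noise (chi-square per degree of freedom of 18.5 to 23). Alternatives were the quasi-likelihood test without and with a replicate block, the likelihood-ratio test with it, DESeq2 1.42.0, other scalings, filters and thresholds, offsets for GC content and length, and each library left out. The procedure was tested on simulated data. Positions, exon lengths and pore sequences come from GENCODE M1 on mm9, promoters from RefSeq on GRCm38.p6. Python 3.11.15, pandas 2.3.3 and matplotlib 3.10.9 were used.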

Additional observations from a re-analysis of the deposited data

Results flagged for a closer look

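Neto1, which encodes a kainate receptor auxiliary subunit, differed between the generations: its level was lower in F2 than in F1, with a log2 fold change of -0.51 (SE 0.12, q = 0.00476 by edgeR's exact test). Over the 17 other settings q ranged from 0.00421 to 0.477, and the call was lost without F1 replicate 2 (q = 0.0716), F2 replicate 1 (q = 0.477) or F2 replicate 2 (q = 0.0632). In the quasi-likelihood test the adjusted p was 0.0863.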

How the results depend on the processing

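The standard error against WT was 0.19 for Grik1, with 199 to 298 reads, and 0.11 to 0.13 for the other 5 subunits. It was derived from both mean counts and dispersion, and the part of depth in this difference was not tested. Against WT, each of the 6 subunits kept its direction under all 17 alternatives. As all 6 had no overlap between WT and either generation, leaving out a library could hardly turn a sign. The threshold of 0.05 changes no fold change, so neither kind of setting tests the direction. The number of subunits called in F2 against WT was 1, and it was 0 in the quasi-likelihood test, 4 at a threshold of 0.05 and 0 to 1 with a library left out. In F1 it was 0, and 1 at a threshold of 0.05. Partner genes called in F1 numbered 3, and 2 in the quasi-likelihood test, 5 at 0.05 or with offsets for GC content and length, and 2 to 5 with a library left out. In F2 they numbered 2, and 1 in the quasi-likelihood test or without the filter on low counts, 6 at 0.05, 5 with dispersion from the groups compared, 4 with the offsets, and 1 to 5 with a library left out. The share of all genes called in F2 moved with the settings too, from 12% to 5.72% in the quasi-likelihood test, 6.77% without the filter, 20.7% at 0.05, 14.7% with that dispersion, 15.8% with the offsets and 3.88% to 14.4% with a library left out, so these are not moves of the list alone. In F1 the share of all genes called was 12.3%, and it was 5.91% in the quasi-likelihood test. It was 20.8% at 0.05 and 15.7% with the offsets, so the F1 counts are not moves of the list alone either. The causes were not tested.

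Whether the replicate numbers pair the libraries is not known, as the labels name no litter, batch or day. Differences between replicates 1 and 2 had correlations over genes of -0.0269 (WT and F1), -0.083 (WT and F2) and -0.182 (F1 and F2). These values cannot settle whether libraries of the same number shared any of these. With the replicate block, 0 subunits were called in F2 by the quasi-likelihood test and 0 by the likelihood-ratio test (Grik3 q = 0.0218 and 0.0128), and 1 with the offsets and the block, and partner genes called in F2 numbered 1 in each of these. Of all genes, 4.35%, 12% and 13.5% were called in F2 under these settings, in the same order.

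Signs turned for the following values. Between F2 and F1, Grik2 (-0.11 to 0.16 with a library left out) had a log2 fold change of -0.01 with the offsets, with and without the block, and -0.04 and -0.11 without F1 replicate 1 and F2 replicate 1. Grik1 (-0.04 to 0.07) had -0.02 and -0.04 without F1 and F2 replicate 2, Adarb1 (-0.29 to 0.25) had 0.25 and 0.03 without F1 replicate 2 and F2 replicate 1, and Klhl17 (-0.06 to 0.12) had -0.06 and -0.02 without F1 and F2 replicate 2. Against WT, Neto2 in F2 (-0.23 to 0.45) had -0.03 without WT replicate 1 and -0.23 without F2 replicate 2, C1ql2 in F2 (-0.17 to 0.22) had -0.17 without F2 replicate 1, and C1ql3 in F1 (-0.12 to 0.33) had -0.12 without F1 replicate 2.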
